A study of Mus musculus with 36 samples.

Results

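The Il-4 receptor, its signal transducer Stat6 and 6 genes that lie downstream of it were followed across all 36 RNA-seq libraries of this series of RAW264.7 cells, a mouse macrophage line. The genes were chosen by name: the receptor chains Il4ra, Il2rg and Il13ra1, the transcription factor Stat6, the cytokine signalling inhibitor Cish, and the transcription factors Egr2, Irf4, Klf4, Pparg and Myc. These are 10 of 49568 genes listed in each of the 2 count tables, and all 10 passed the filter on low counts in both tables, where 16845 (IFNγ) and 14183 (Il-4) genes were tested.

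Il-4 binds Il4ra, which pairs with the common gamma chain Il2rg to form the type I receptor or with Il13ra1 to form the type II receptor, the form that also binds Il-13. Janus kinases bound to these chains phosphorylate Stat6, which dimerizes, enters the nucleus and turns on the genes of alternative (M2) macrophage activation. IFNγ acts through its own receptor and drives classical (M1) activation. Cish is a feedback inhibitor that cytokine receptors induce through STAT proteins. Egr2, Irf4, Klf4 and Pparg are transcription factors known for their part in the Il-4 response of macrophages, and Myc, a regulator of growth and metabolism, is induced by Il-4 in human macrophages.

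The question behind the series is whether peptides of the human HLA-DRβ chain change macrophage polarization. The peptide 65–79*SE (SE below) carries the shared epitope of HLA-DRB1 alleles tied to rheumatoid arthritis risk, and 65–79*PE (PE below) carries the protective epitope. The IFNγ series held 3 groups of 6 libraries: PBS, SE plus IFNγ, and PE plus IFNγ (peptide 100 µg/ml, cytokine 5 ng/ml), all collected at 72 h. The Il-4 series held the same 3 groups with Il-4, again 5 ng/ml, in place of IFNγ. The labels name replicates 1–3 of a group in another way than replicates 4–6, so these label sets are shown apart, with 3 libraries on each side of a comparison. All libraries came from 1 cell line. The study describes 6 biological replicates drawn from 2 independent experiments, which the labels do not name. The p-values therefore measure the spread between cultures of that line within a label set. Whether a label set is a single experiment is not stated, so these p-values may leave out the spread between experiments.

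Of the members, Cish alone held letters of a STAT site in its start region. In the windows from 250 bases before to 50 after each RefSeq gene start (GRCm38.p6), which were found for 9 of the 10 members and not for Myc, the letters TTC and GAA with 4 free bases between them, the spacing that Stat6 prefers, and with 3 free bases, the spacing of other STAT proteins, were looked for on both strands, which these palindromes read alike. The wider spacing stood in none of the 9 and the narrower in 1, against 6.95% and 8.3% of all 32851 windows. Counts this small in 9 windows do not set the members apart from those shares. The Cish stretch of 30 bases, on the plus strand at chr9:107296654-107296683, lies in a 5′ UTR exon of GENCODE M21 and holds 2 matches of the narrower spacing side by side, the first beginning at the RefSeq start. Of 23 genes known to be induced by Il-4, 15 had a window and 6 of these held the wider spacing. Pdcd1lg2, an effector gene called higher in 3 of the 4 Il-4 contrasts with PBS described below, is shown for comparison and was picked after its values were seen. Its stretch, on the plus strand at chr19:29410827-29410856, lies outside exons of that annotation, upstream of the gene start, and holds the wider spacing. Capitals mark the matched letters.
Cish: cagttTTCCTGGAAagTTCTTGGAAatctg
Pdcd1lg2: catgctccagTTCCTCAGAAaccattctgg

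IFNγ libraries held 20.67 to 63.16 M counts each and Il-4 libraries 17.05 to 30.64 M, so that a count of 0 allows up to 0.0541 to 0.166 and 0.095 to 0.172 CPM (3 counts, counting error only). Of 10 macrophage markers, 9 were above 1 CPM in every group, while B-cell and mast-cell markers summed to at most 0.323 and 0.139 CPM. T-cell markers summed to 6.37 to 18.6 CPM, with 1 of 7 above 1 CPM in every group, and fibroblast markers to at most 1.27 CPM. The label sets differed in make-up. Histone genes summed to 63.78–163.8 CPM in replicates 1–3 of the IFNγ series and 2596–7171 CPM in replicates 4–6, and to 54.31–140.4 and 3425–14520 CPM in the Il-4 series, and groups are therefore tested against each other only within a set. PBS libraries of either series carried the response to neither cytokine, so a contrast against PBS holds cytokine and peptide together, and only SE against PE sets peptides side by side. Of 20 genes of the IFNγ response, all 20 were higher than in PBS in SE replicates 1–3 and in both sets of PE, but in the IFNγ libraries labelled SE, replicates 4–6, none was higher and 1 was lower. There Cxcl9, an IFNγ-induced chemokine, stood at 0.0343 CPM against 13.4 CPM in PE and the class II gene H2-Aa at 0.0635 against 473.5 CPM. Each IFNγ result with SE is therefore given for the sets apart, and the result without those libraries is that of replicates 1–3.

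A gene was called higher or lower at a fold over 1.5 and an adjusted p under 0.05 by edgeR's quasi-likelihood test with Benjamini-Hochberg adjustment over all genes tested, to which every adjusted p below refers. In the Il-4 series, SE against PBS called 4 members in replicates 1–3 (Cish and Egr2 higher, Il4ra and Il13ra1 lower), where 6.17% of all genes were called, and 3 in replicates 4–6 (Cish, Egr2 and Irf4 higher), where 2.21% were. PE against PBS called 3 in replicates 1–3 (Cish and Egr2 higher, Il13ra1 lower) and 3 in replicates 4–6 (Cish, Egr2 and Irf4 higher), against backgrounds of 3.48% and 3.58%. Cish and Egr2 were thus called higher in each of these 4 contrasts, which share PBS libraries in pairs. The median log2 fold change over the 10 members was 0.33 and 0.17 for SE and 0.34 and -0.01 for PE, beside -0.07 and -0.01 for either peptide over all genes tested. In these bulk libraries, fewer cells of a kind and less RNA per cell cannot be told apart.

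In the IFNγ series, SE against PBS called 7 members higher and none lower in replicates 1–3 (Il4ra, Il2rg, Cish, Irf4, Klf4, Pparg and Myc), where 21.2% of all genes were called. Of these, Cish passed the low count filter only through SE replicates 1–3. In the libraries labelled SE, replicates 4–6, which lacked the IFNγ response, SE against PBS called Irf4 higher and Cish and Myc lower, where 2.04% were called. PE against PBS called Il4ra, Il2rg, Pparg and Myc higher and Egr2 and Irf4 lower in replicates 1–3, and Il4ra, Il2rg and Pparg higher and Egr2 lower in replicates 4–6, against 18.5% and 11.2% of all genes. The medians over the members were 0.89 and 0.00 for SE and 0.28 and 0.08 for PE, beside -0.04, 0.00, -0.04 and 0.00 over all genes tested.

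**Figure D1:**
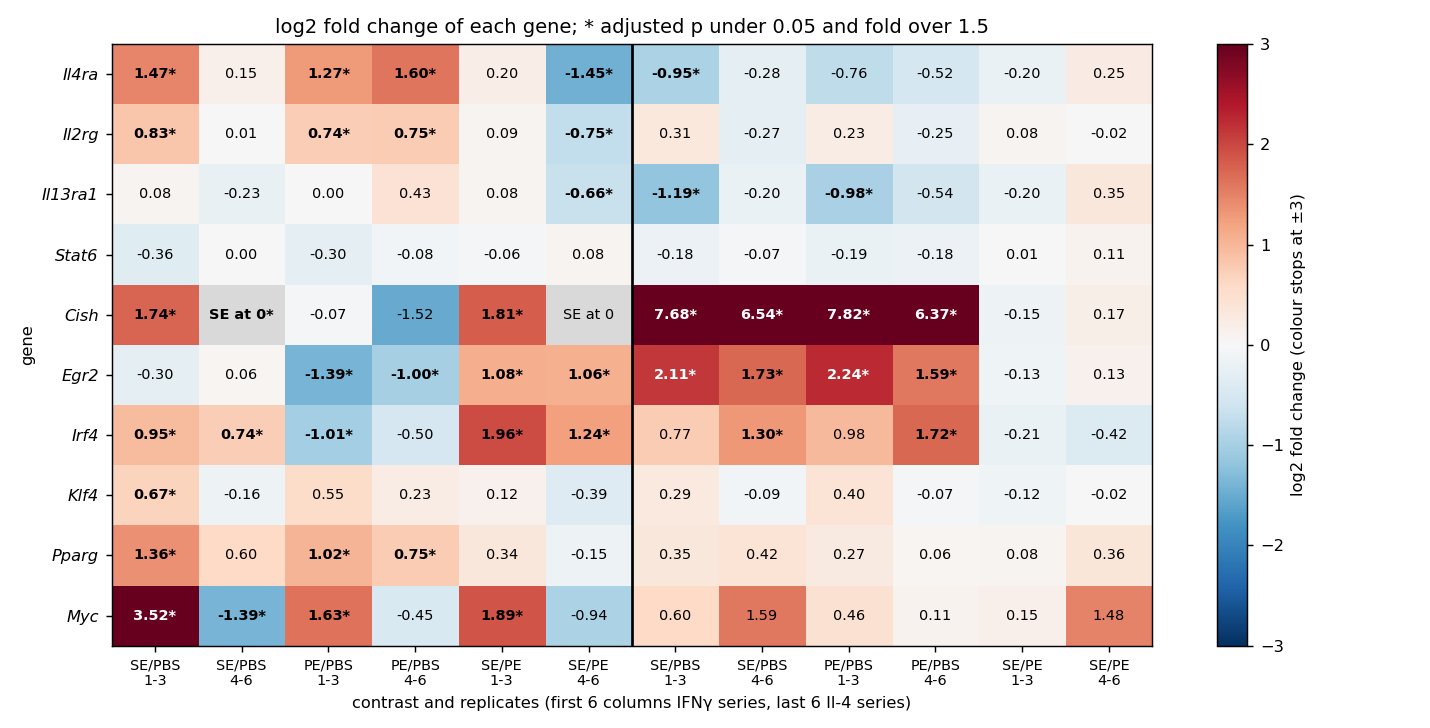
log2 fold changes of the 10 genes (rows) in each contrast and label set (columns), with IFNγ in the first 6 columns and Il-4 in the last 6; an asterisk marks a call and grey cells mark the libraries where Cish had 0 counts. Cish against PBS in the Il-4 series is dark red in all 4 columns, though its fitted value depends on the prior count because PBS held 3 counts a set, while the Stat6 row stays pale throughout.

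The receptor's binding chain was called higher in SE replicates 1–3 and both sets of PE with IFNγ. With Il-4 it was called lower in SE replicates 1–3 alone. Il4ra (GRCm38 chr7:125552120-125579474, plus strand) was 4.51, 5.70 and 5.73 CPM in PBS replicates 1–3 of the IFNγ series. It was 15.0, 14.3 and 15.0 CPM in SE and 12.8, 12.3 and 13.4 CPM in PE, so that every peptide library lay above every PBS library. The log2 fold change was 1.47 (standard error 0.12, adjusted p = 3.6e-09) for SE and 1.27 (standard error 0.12, adjusted p = 4.78e-08) for PE. PBS replicates 4–6 held 4.11, 3.19 and 4.18 CPM and PE 11.3, 10.9 and 13.1 CPM, a log2 fold change of 1.60 (standard error 0.12, adjusted p = 3.11e-09). The libraries labelled SE, replicates 4–6, held 4.29, 4.75 and 4.00 CPM and overlapped PBS, with a log2 fold change of 0.15 (adjusted p = 0.585).

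With Il-4, Il4ra fell in SE replicates 1–3. In replicates 1–3 it was 7.02, 6.64 and 6.95 CPM in PBS, 3.80, 3.77 and 3.06 CPM in SE and 6.03, 2.88 and 3.23 CPM in PE. All 6 peptide libraries lay below all 3 PBS libraries, though 1 PE library stood close to them. The log2 fold change was -0.95 (standard error 0.24, adjusted p = 0.0144) for SE and -0.76 (standard error 0.23, adjusted p = 0.0597) for PE, the latter not called. The SE call was lost without replicate 2 (adjusted p = 0.132) or replicate 3 (0.175), and PE passed with DESeq2 (0.03), with no low count filter (0.0372) and without replicate 1 (0.0139). PBS replicates 4–6 ran from 3.73 to 4.89 CPM, SE from 2.98 to 3.94 and PE from 2.42 to 3.78, with overlap, and neither contrast was called (log2 fold changes -0.28 and -0.52, adjusted p = 0.544 and 0.242).

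Il2rg (chrX:101264378-101268255, minus strand), the gamma chain that several cytokine receptors share, rose with IFNγ. In replicates 1–3 it was 49.3, 49.9 and 48.8 CPM in PBS, 91.0, 84.3 and 88.5 CPM in SE and 82.1, 80.6 and 84.5 CPM in PE, without overlap with PBS. The log2 fold changes were 0.83 (standard error 0.07, adjusted p = 1.66e-08) and 0.74 (standard error 0.07, adjusted p = 1.26e-07). PE replicates 4–6, at 47.9, 51.2 and 45.3 CPM, again lay above PBS at 28.9, 26.1 and 30.3 CPM (log2 fold change 0.75, standard error 0.07, adjusted p = 2.01e-07). The libraries labelled SE, replicates 4–6, held 28.4, 31.8 and 25.9 CPM, a log2 fold change of 0.01 (adjusted p = 0.983). With Il-4, Il2rg was called in no contrast: it ran from 51.8 to 58.7 CPM in PBS, 65.8 to 71.7 in SE and 63.7 to 65.4 in PE of replicates 1–3, where both peptides lay above PBS (0.31 and 0.23, adjusted p = 0.382 and 0.591), and the 3 groups overlapped between 9.39 and 22.0 CPM in replicates 4–6.

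Il13ra1 (chrX:36112110-36171259, plus strand), the chain of the type II receptor, fell with Il-4 in replicates 1–3 and showed no call against PBS with IFNγ. With Il-4 it was 28.3, 26.9 and 23.4 CPM in PBS, 12.9, 13.4 and 8.30 CPM in SE and 15.4, 12.2 and 12.05 CPM in PE of replicates 1–3. No peptide library reached the lowest PBS library, and the log2 fold changes were -1.19 (standard error 0.29, adjusted p = 0.0132) and -0.98 (standard error 0.29, adjusted p = 0.0484). The SE call was lost without replicate 2 (adjusted p = 0.159) or 3 (0.162), and the PE call without replicate 1, 2, 3 or 5, with RLE size factors (0.0565) and among protein-coding genes alone (0.06). The groups overlapped in replicates 4–6, from 32.1 to 64.4 CPM in PBS, 33.4 to 60.8 in SE and 21.9 to 47.6 in PE. With IFNγ, PBS and PE of replicates 1–3 were both near 10.8 CPM on average. PE replicates 4–6 stood at 42.5, 37.1 and 35.96 CPM, above PBS at 25.7, 29.5 and 30.4 CPM, with a log2 fold change of 0.43 (adjusted p = 0.00136) that was under the fold of 1.5.

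Per length, which allows genes to be compared, Il2rg stood above Il13ra1 in every library of replicates 1–3. The ratio of their RPKM (counts per kilobase of exon, scaled by depth) was 2.85–3.90 in PBS, 8.23–12.3 in SE and 6.42–8.44 in PE of the Il-4 series. Over replicates 4–6 of that series it was 0.227–1.28, so Il13ra1 was the higher of the pair in most libraries there. In the IFNγ series it was 6.73–7.38 in PBS, 11.1–12.8 in SE and 10.5–13.4 in PE of replicates 1–3, and 1.38–2.15 over the 9 libraries of replicates 4–6. The ratios of replicates 1–3 do not overlap between PBS and peptide in either series, but all ratios of replicates 4–6 lie below all those of replicates 1–3, and the part of the different library make-up in this was not tested. Il4ra was lower per length than both partners in each group, with group means of 0.506 to 2.46 RPKM against 5.53 to 36.8 for Il2rg and 2.90 to 13.8 for Il13ra1. Length here is that of all annotated exons joined, 6002 bases for Il4ra and 3712 for Il13ra1. In SE and PE replicates 1–3 with IFNγ the order to Il13ra1 rests on it, since Il4ra averaged 14.74 and 12.84 CPM against 11.38 and 10.8.

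**Figure D2:**
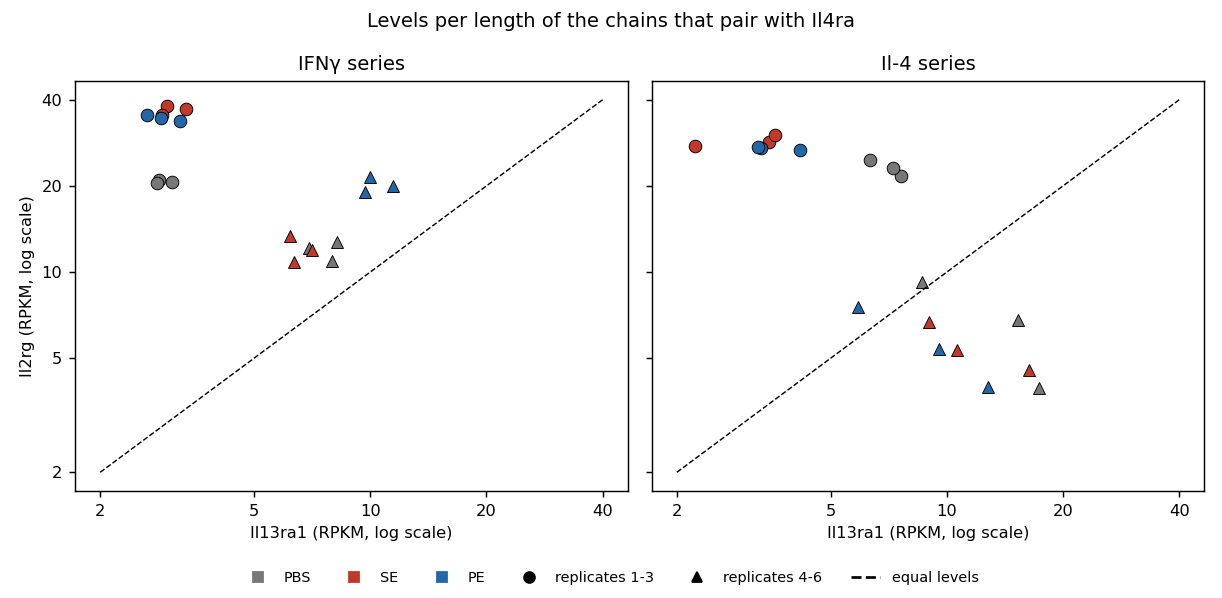
Il2rg against Il13ra1 in each library (RPKM, log axes), IFNγ on the left and Il-4 on the right; circles are replicates 1–3, triangles replicates 4–6, and the dashed line marks equal levels. In the Il-4 series, peptide libraries of replicates 1–3 lie to the left of PBS, and most libraries of replicates 4–6 lie below the line.

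Stat6 (chr10:127642986-127660957, plus strand) was among the most abundant members per length, at 30.1 to 57.3 RPKM, and it was called in no contrast. With Il-4 it ran from 248 to 256.7 CPM in PBS, 213 to 243.1 in SE and 216.2 to 227 in PE of replicates 1–3, with log2 fold changes of -0.18 and -0.19 (adjusted p = 0.172 and 0.181). The log2 fold changes in replicates 4–6 were -0.07 and -0.18 (adjusted p = 0.658 and 0.223). With IFNγ, Stat6 was lower in replicates 1–3 for SE (log2 fold change -0.36, adjusted p = 5.29e-05) and PE (-0.30, adjusted p = 0.000396), with no library of either reaching PBS, but both were under the fold of 1.5. The same contrasts in replicates 4–6 gave 0.00 (adjusted p = 0.987) for the libraries labelled SE and -0.08 (adjusted p = 0.343) for PE, the set that carries the IFNγ response. These are levels of Stat6 RNA, and phosphorylation of the protein was not measured in these libraries.

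Cish (chr9:107296026-107302784, plus strand) changed most of the members with Il-4. Its counts in PBS were 2, 0 and 1 in replicates 1–3 and 1, 2 and 0 in replicates 4–6. With Il-4 they were 264, 164 and 239 in SE and 334, 190 and 219 in PE of replicates 1–3, and 77, 152 and 136 in SE and 134, 151 and 82 in PE of replicates 4–6. Every Il-4 library with peptide was thus far above a gene at or under the floor in PBS. Per depth, 667 SE counts over 3 PBS counts in replicates 1–3 gave a ratio of 233 (95% interval 79.4 to 1130, counting error only) and 365 over 3 in replicates 4–6 gave 102 (34.8 to 499). For PE the ratios were 259 (88.2 to 1260) and 91.3 (31 to 445). All 4 contrasts were called, with adjusted p = 1.67e-08 and 4.78e-07 for SE and 1.11e-08 and 6.61e-07 for PE.

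With IFNγ, Cish stayed low. Counts were 5, 8 and 2 in PBS, 20, 13 and 22 in SE and 6, 5 and 4 in PE of replicates 1–3. SE was above PBS in all 3 libraries, by a ratio of summed counts per depth of 3.41 (1.9 to 6.51, adjusted p = 0.00262), while PE, at 0.951 (0.433 to 2.09), was not called. Cish passed the low count filter of this series only through those SE libraries, so the filter and the SE call rest on the same values. The SE call was lost without replicate 3. Among replicates 4–6, PBS had 5, 3 and 4 counts, PE had 1 in each library and the libraries labelled SE had 0 in each. The SE ratio was 0 (0 to 0.646), and that call (adjusted p = 0.0427) was lost without any 1 of the replicates and with no low count filter (0.0914).

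Egr2 (chr10:67535475-67542188, plus strand), a zinc finger factor known to act in the Il-4 programme of macrophages, rose with Il-4 and fell with PE in the IFNγ series. With Il-4 it was 4.24, 2.20 and 2.97 CPM in PBS, 16.6, 10.97 and 13.1 CPM in SE and 21.1, 11.6 and 11.7 CPM in PE of replicates 1–3. The log2 fold changes were 2.11 (standard error 0.26, adjusted p = 0.000125) and 2.24 (standard error 0.26, adjusted p = 6.87e-05), and no library overlapped PBS. For replicates 4–6, PBS was 2.14, 1.44 and 1.29 CPM, SE 5.20, 5.23 and 5.64 CPM and PE 4.13, 5.41 and 5.09 CPM, again without overlap. The log2 fold changes there were 1.73 (standard error 0.30, adjusted p = 0.00362) and 1.59 (standard error 0.30, adjusted p = 0.00373), and both calls were lost without replicate 5 (adjusted p = 0.0839 and 0.125).

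With IFNγ, Egr2 was 1.76, 2.18 and 2.31 CPM in PBS, 1.86, 1.77 and 1.43 CPM in SE and 0.881, 0.738 and 0.765 CPM in PE of replicates 1–3. SE overlapped PBS and PE lay below both, with a log2 fold change against PBS of -1.39 (standard error 0.28, adjusted p = 0.000553). In replicates 4–6 PBS was 1.73, 1.62 and 1.18 CPM and PE 1.25, 0.516 and 0.584 CPM, a log2 fold change of -1 (standard error 0.30, adjusted p = 0.0161) with 1 PE library inside the PBS range. That call was lost without replicate 5 (adjusted p = 0.125) or 6 (0.0505) and when replicates 4–6 were fitted alone. Of 4 tested genes listed as relatives of Egr2, none was called higher with Il-4. Egr3 was lower in SE replicates 1–3 (log2 fold change -1.74, adjusted p = 0.049) and PE replicates 4–6 (-2.52, adjusted p = 0.0271). Egr1 was lower in replicates 4–6 of SE (-0.90, adjusted p = 0.00764) and PE (-1.09, adjusted p = 0.00107). Of Egr2 and these relatives, Egr2 alone was called higher in these 4 contrasts.

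Irf4 (chr13:30749226-30766976, plus strand), an interferon regulatory factor that takes part in M2 gene expression, rose with Il-4 in replicates 4–6. PBS there was 3.08, 4.03 and 7.47 CPM, SE 11.02, 13.6 and 11.4 CPM and PE 12.5, 17.5 and 18.5 CPM, without overlap with PBS. The log2 fold changes were 1.30 (standard error 0.32, adjusted p = 0.0342) for SE and 1.72 (standard error 0.32, adjusted p = 0.00353) for PE. The SE call was lost without replicate 2, 3, 4 or 5 and in replicates 4–6 alone, and the PE call without replicate 5 (adjusted p = 0.116). In replicates 1–3 PBS was 14.2, 9.39 and 13.9 CPM, SE 30.1, 17.4 and 16.5 CPM and PE 34.5, 18.6 and 21.1 CPM. All peptide libraries were above PBS, and the log2 fold changes of 0.77 and 0.98 missed the threshold (adjusted p = 0.0897 and 0.0528) but passed it with DESeq2 (0.0456 and 0.0134).

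With IFNγ, Irf4 separated the groups in both directions. In replicates 1–3 it was 6.22, 4.15 and 5.86 CPM in PBS, 12, 9.06 and 10.3 CPM in SE and 2.14, 3.15 and 2.75 CPM in PE. SE lay above PBS (log2 fold change 0.95, standard error 0.18, adjusted p = 0.000263) and PE below it (-1.01, standard error 0.20, adjusted p = 0.000443), with no overlap among the 3 groups. Among replicates 4–6, PBS was 9.33, 6.15 and 6.90 CPM and PE 4.67, 6.04 and 5.28 CPM, a log2 fold change of -0.50 (adjusted p = 0.0561). The libraries labelled SE, replicates 4–6, were 10.1, 14.4 and 13.4 CPM, above each PBS library although they lacked the IFNγ response (0.74, standard error 0.18, adjusted p = 0.0218). That call was lost without replicate 5 (adjusted p = 0.179) or 6 (0.318) and in replicates 4–6 alone (0.0595). Of 7 other IRF genes, Irf1, Irf7 and Irf8 rose under either peptide in replicates 1–3, whereas Irf1, Irf5 and Irf8 rose with PE in replicates 4–6, Irf1 by 2.16, 2.80 and 3.06 on the log2 scale. Irf7 was lower in the libraries labelled SE, replicates 4–6 (-0.80, adjusted p = 0.00289), and none of the 7 was called in any Il-4 contrast.

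**Figure D3:**
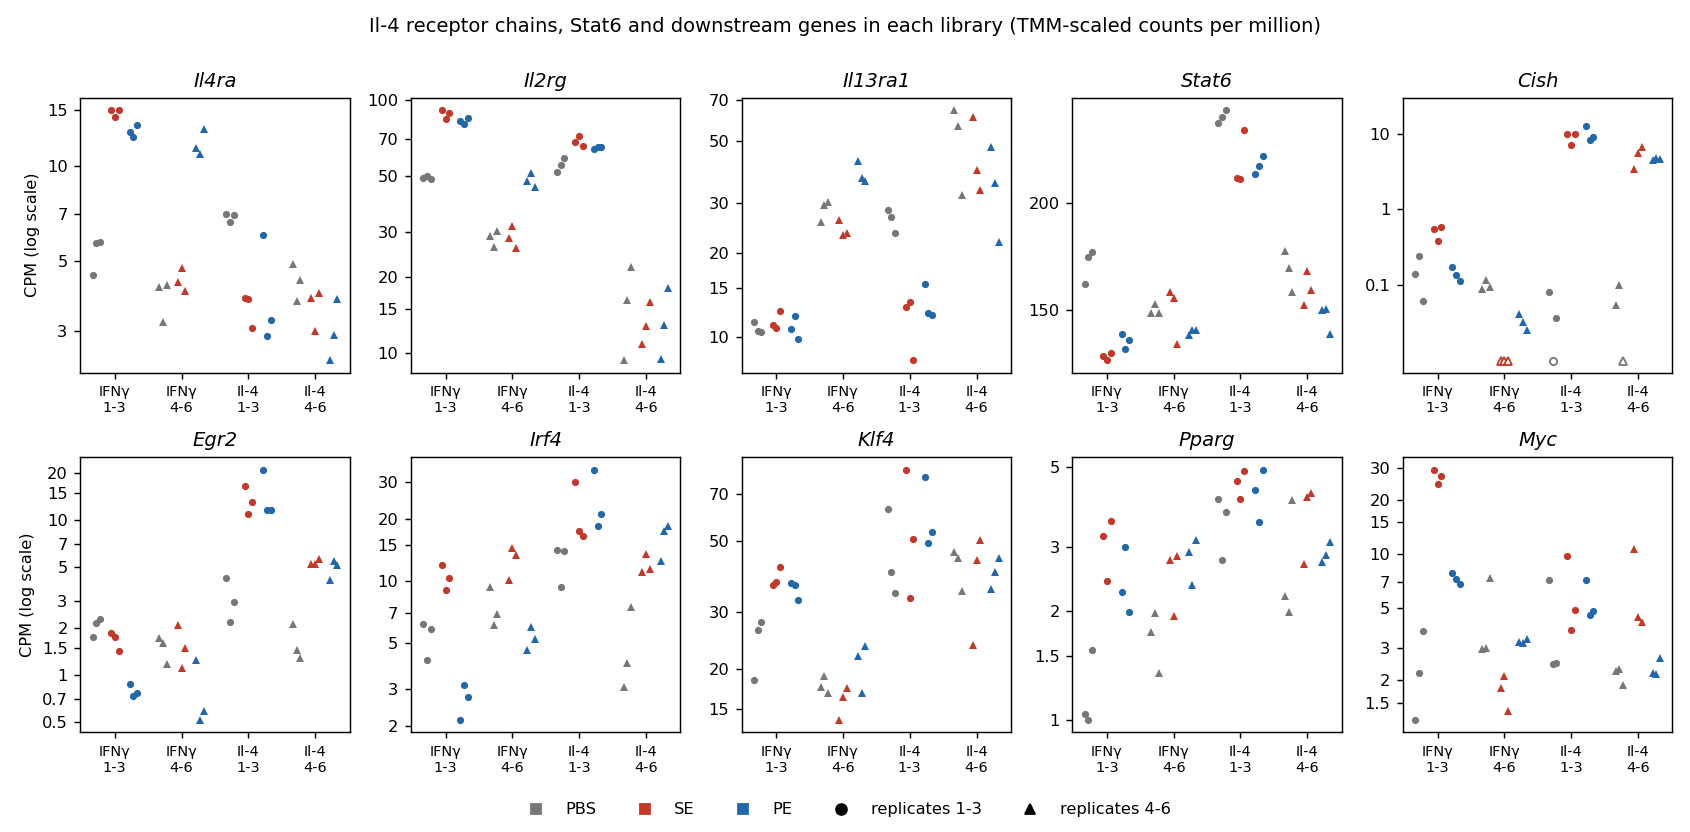
CPM of each gene in all 36 libraries (log axes), grouped by series and label set; grey is PBS, red SE, blue PE, circles replicates 1–3, triangles replicates 4–6, and open symbols libraries with 0 counts of Cish. Il4ra and Il2rg of the libraries labelled SE, replicates 4–6, of the IFNγ series sit with PBS and not with PE, while Irf4 of the same libraries sits above both.

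Pparg (chr6:115360951-115490399, plus strand), a nuclear receptor of lipid metabolism, was called higher in SE replicates 1–3 and both sets of PE in the IFNγ series. It was 1.04, 1.00 and 1.56 CPM in PBS, 3.21, 2.41 and 3.55 CPM in SE and 2.26, 3.01 and 1.98 CPM in PE of replicates 1–3. The log2 fold changes were 1.36 (standard error 0.24, adjusted p = 8.97e-05) and 1.02 (standard error 0.24, adjusted p = 0.00194), the PE call being lost without replicate 2. PE replicates 4–6, at 2.92, 2.36 and 3.15 CPM, lay above PBS at 1.75, 1.97 and 1.35 CPM (0.75, standard error 0.23, adjusted p = 0.0186), a call lost without replicate 4 or 6. The libraries labelled SE, replicates 4–6, which lacked the IFNγ response, overlapped PBS at 2.76, 1.93 and 2.84 CPM (0.60, adjusted p = 0.16). They differed from PE of that set by -0.15 on the log2 scale, which was not called. The part of the cytokine in the rise of Pparg was not tested. With Il-4, Pparg was not called against PBS, with log2 fold changes from 0.06 to 0.42. Of 11 tested partners and targets of the PPARs, 1 rose in each Il-4 contrast, Cd36, a scavenger receptor that Pparg induces (0.91 and 1.32 for SE, 1.15 and 1.30 for PE). Ppard, the delta form of the receptor, was lower in both sets of PE (-0.61 and -1.11) and in SE replicates 4–6 (-0.95), where Rxra was lower too. Of 12 tested with IFNγ, PE called 4 higher and 5 lower in replicates 1–3 and 2 higher and 3 lower in replicates 4–6, and SE called 3 higher and 3 lower in replicates 1–3 and 0 in replicates 4–6. Over all genes tested in that series, PE called 18.5% and 11.2% and SE 21.2% and 2.04% in replicates 1–3 and 4–6. Cd36 rose there by 2.06 and 2.21 on the log2 scale in PE, while Rxra, the partner of Pparg (-0.82 and -0.86), and Acaa2, an enzyme of fatty acid oxidation (-1.19 and -1.03), were lower.

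Klf4 (chr4:55527143-55532466, minus strand), a Krüppel-like factor that cooperates with Stat6, rose in SE replicates 1–3 of the IFNγ series. It was 18.5, 26.5 and 27.9 CPM in PBS and 36.6, 37.2 and 41.6 CPM in SE, without overlap. The log2 fold change was 0.67 (standard error 0.13, adjusted p = 0.000347) and went under the fold of 1.5 without replicate 1. PE of the same set, at 37.2, 36.5 and 32.8 CPM, was also above PBS, by 0.55 (adjusted p = 0.00229, fold 1.46). It was called among protein-coding genes alone (0.61), with replicates 1–3 fitted alone (0.59) and without replicate 2, 3, 4, 5 or 6. Neither group was called in replicates 4–6 (-0.16 and 0.23). With Il-4, Klf4 spanned 34.5–83.3 CPM (replicates 1–3) and 23.8–50.5 CPM (replicates 4–6) with overlap of all groups, and neither peptide was called against PBS (-0.09 to 0.40).

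Myc (chr15:61985391-61990374, plus strand) had the largest rise of the members with IFNγ, in SE replicates 1–3. It was 1.21, 2.18 and 3.74 CPM in PBS, 29.4, 24.6 and 27.1 CPM in SE and 7.81, 7.28 and 6.83 CPM in PE. The 3 groups did not overlap, and the log2 fold changes against PBS were 3.52 (standard error 0.31, adjusted p = 1.44e-08) and 1.63 (standard error 0.31, adjusted p = 0.000283). In replicates 4–6 PBS was 2.96, 3.00 and 7.37 CPM, the libraries labelled SE 1.81, 2.10 and 1.35 CPM and PE 3.25, 3.20 and 3.38 CPM. SE was called lower there (-1.39, standard error 0.36, adjusted p = 0.0309), which turned on 1 PBS library: without replicate 6 the log2 fold change was -0.64 (adjusted p = 0.536). The call was also lost without replicate 2 (0.0636) and in replicates 4–6 alone (0.0739). Among 17 tested partners and targets of Myc, 2 rose and 5 fell in SE replicates 1–3 (median -0.31, beside -0.04 over all genes tested). Those that rose were ornithine decarboxylase Odc1, a Myc target (1.49), and the antagonist Mxd1 (1.02). Those that fell were Mycn, the antagonists Mnt, Mxd4 and Mxi1, and lactate dehydrogenase Ldha, a Myc target (-0.62, adjusted p = 0.00472). PE called 0 higher, with 5 lower in replicates 1–3 and 2 in replicates 4–6. Over all genes tested, 21.2% were called in SE replicates 1–3, and 18.5% and 11.2% in PE replicates 1–3 and 4–6.

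With Il-4, Myc was not called. SE replicates 4–6 held 10.7, 4.46 and 4.19 CPM against 2.25, 2.29 and 1.88 CPM in PBS and 2.18, 2.15 and 2.63 CPM in PE. The SE libraries lay above both other groups, by log2 fold changes of 1.59 against PBS (adjusted p = 0.0623) and 1.48 against PE (95% interval 0.55 to 2.41, adjusted p = 0.296). SE against PBS passed with DESeq2 (adjusted p = 0.00708). In replicates 1–3 the groups overlapped, since 1 PBS library held 7.22 CPM against 2.44 and 2.49 CPM in the others.

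SE and PE carry the same cytokine on their labels, so their contrast is free of the PBS question. In replicates 1–3 of the IFNγ series 4 members were called higher in SE and none lower, where 5.33% of all genes were called. Irf4 differed by 1.96 on the log2 scale (standard error 0.20, 95% interval 1.55 to 2.37, adjusted p = 1.65e-06) and Myc by 1.89 (standard error 0.27, 95% interval 1.32 to 2.45, adjusted p = 6.33e-05). Cish differed by 1.81 (standard error 0.42, adjusted p = 0.00573) and Egr2 by 1.08 (standard error 0.29, adjusted p = 0.0117). Cish passed the low count filter only through these SE libraries, so its call rests on values that the filter used. The Cish call was lost without replicate 1 (adjusted p = 0.0608) or 3 (0.1) and with DESeq2, and the Egr2 call without any 1 of replicates 1–3 (0.0841, 0.103 and 0.075). The receptor chains and Stat6 were not called, with log2 differences of 0.20 for Il4ra (95% interval -0.03 to 0.43), 0.09 for Il2rg (-0.06 to 0.24), 0.08 for Il13ra1 (-0.13 to 0.28) and -0.06 for Stat6 (-0.18 to 0.07). These 4 intervals stay within a fold of 1.5 in either direction.

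In replicates 4–6 of the IFNγ series the contrast sets libraries without an IFNγ response against libraries with one, and 13.9% of all genes were called. Il4ra (-1.45, standard error 0.13, adjusted p = 2.73e-08), Il2rg (-0.75, standard error 0.08, adjusted p = 2.63e-07) and Il13ra1 (-0.66, standard error 0.09, adjusted p = 1.65e-05) were lower in SE. Irf4 (1.24, standard error 0.19, adjusted p = 3.52e-05) and Egr2 (1.06, standard error 0.31, adjusted p = 0.0127) were higher in SE, as in replicates 1–3, the Egr2 call being lost without replicate 6 (0.0893). The median over the members was 0.27 in replicates 1–3 and -0.52 in replicates 4–6, the latter -0.27 with Cish, at 0 counts in SE, set to the floor. Irf4 and Egr2 were thus called higher in SE than in PE in both sets, but what the peptide and what the missing IFNγ response contributed in replicates 4–6 cannot be told apart.

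With Il-4 no member was called between SE and PE in either set, and 0% and 0% of all genes were called by edgeR. Of 14183 genes tested, 570 and 1321 had an unadjusted edgeR p under 0.05, a share of 0.05 being expected without any difference. DESeq2 called 0 and 46 genes. The log2 differences in replicates 1–3 and 4–6 were -0.15 (95% interval -0.66 to 0.37) and 0.17 (-0.37 to 0.71) for Cish. For Egr2 they were -0.13 (-0.64 to 0.38) and 0.13 (-0.41 to 0.68), and for Irf4 -0.21 (-0.82 to 0.39) and -0.42 (-1.05 to 0.20). Il4ra differed by -0.20 (-0.70 to 0.31) and 0.25 (-0.27 to 0.77) and Stat6 by 0.01 (-0.16 to 0.19) and 0.11 (-0.06 to 0.29). The Stat6 intervals exclude a difference of 1.5 times in either direction and those of Cish, Egr2, Irf4 and Il4ra do not.

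**Figure D4:**
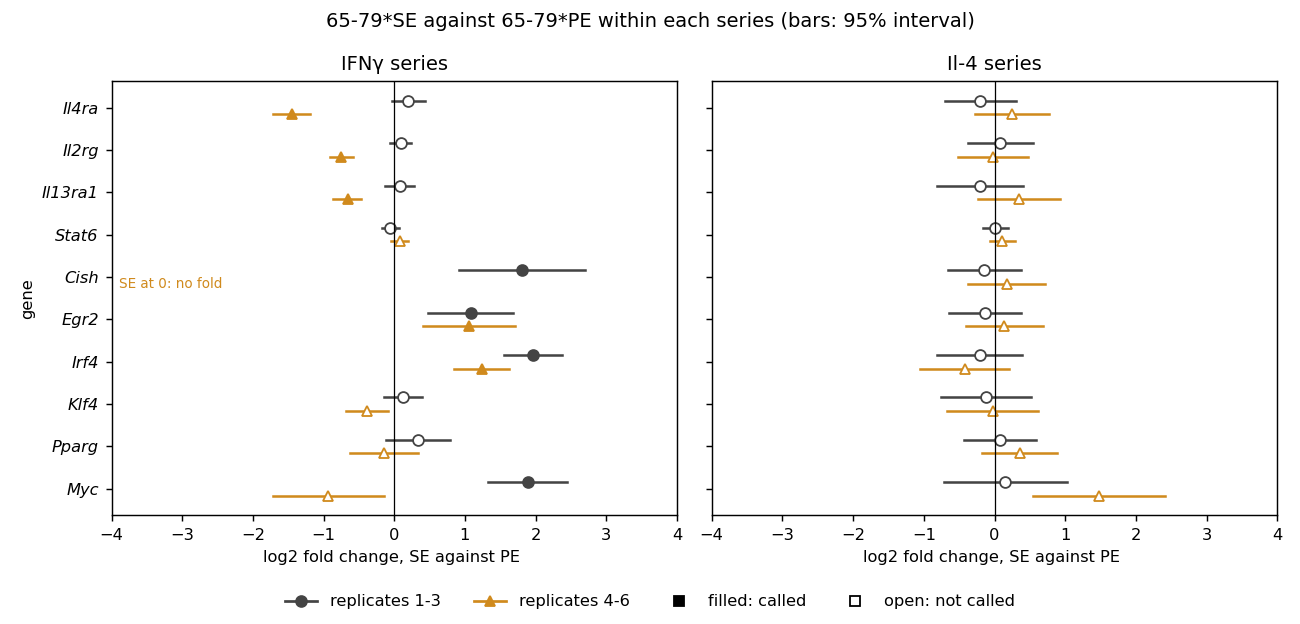
log2 difference of SE from PE with its 95% interval for each gene, IFNγ on the left and Il-4 on the right, replicates 1–3 and 4–6 apart. With IFNγ the Irf4 and Egr2 intervals lie to the right of 0 in both sets and the receptor chains lie to the left in replicates 4–6 alone; with Il-4 every interval covers 0 except that of Myc in replicates 4–6.

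The difference of a contrast between the label sets was tested directly, as replicates 4–6 minus replicates 1–3. In the IFNγ series SE against PBS differed for 6 of 10 members (Il4ra, Il2rg, Stat6, Cish, Klf4 and Myc) and SE against PE for 5 (Il4ra, Il2rg, Il13ra1, Cish and Myc), where 35.7% and 28.8% of all genes did. PE against PBS, in which both sets carry the IFNγ response, differed for 2 (Il13ra1 and Myc), where 11.5% of all genes did. Irf4 and Egr2 passed in none of the 3, with adjusted p = 0.0515 and 0.988 for SE against PE, though Irf4 passed there with DESeq2 (0.0361), with no low count filter (0.00622) and without replicate 2 (0.0197). The Cish difference for SE against PE (adjusted p = 0.0277) was lost with DESeq2 (0.0682), with no low count filter (0.107) and without replicate 1, 3, 4, 5 or 6, the Stat6 difference without replicate 4 (0.0505), and the Il13ra1 difference for PE against PBS under 8 alternatives. In the Il-4 series no member differed between the sets in any contrast, where 4.39% (SE against PBS), 0.00705% (PE against PBS) and 0% (SE against PE) of all genes did.

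The change against PBS was also compared between the series, as Il-4 minus IFNγ, in 1 model of all 36 libraries. For PE, Il4ra (-2.01 and -2.07), Il13ra1 (-0.97 and -0.90), Cish, Egr2 (3.64 and 2.67) and Irf4 (2.01 and 2.29) differed in both sets and Il2rg (-0.95) in replicates 4–6, where 18.1% and 16% of all genes differed. The Egr2 and Irf4 differences in PE had adjusted p from 3.61e-08 to 0.000227. For SE in replicates 1–3, Il4ra (-2.36), Il13ra1 (-1.20), Cish, Egr2 (2.48), Pparg (-0.94) and Myc (-2.84) differed, where 26.5% of all genes did, and Irf4, which rose with SE under IFNγ also, did not (-0.12, adjusted p = 0.898). In replicates 4–6, where the IFNγ side lacks its response, Cish, Egr2 and Myc differed against 6.26% of all genes. Stat6 and Klf4 passed in none of the 4 tests. Several of these calls turned on single replicates. The Il13ra1 differences in PE were lost without replicate 1, 2, 3 or 5 (adjusted p from 0.0712 to 0.307) and, in replicates 4–6, also without 4, and the Il13ra1 difference in SE without 3 (0.102). Il2rg in PE was lost without replicate 5 (0.133), Pparg in SE without 1, 2 or 3 (0.278, 0.0788 and 0.0841), Egr2 in SE replicates 4–6 without 5 or 6 (0.111 and 0.0659), and Myc in the same set without 6 (0.0537).

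The rest of the pathway was followed with lists chosen by known role. Among 13 tested relay genes of the receptor (Janus kinases, adaptors and PI3-kinase), Il-4 called 0 in either contrast of replicates 1–3, and Jak2 higher in SE (0.77, adjusted p = 0.0469) and Pik3cd and Fes lower in PE (-0.71 and -0.66) in replicates 4–6. Of 12 feedback genes, Socs1, the suppressor of Janus kinase signalling, rose with SE by 2.42 in replicates 1–3 (adjusted p = 0.000106) and stood at 1.02 (adjusted p = 0.054) in replicates 4–6, and it rose with PE by 2.40 and 1.05. With IFNγ, Socs1 rose by 1.83 in SE replicates 1–3 and by 2.27 and 1.74 in PE, and Socs3 by 1.19, 0.79 and 0.94. Of the 5 other STAT genes tested, Stat2 rose with IFNγ in those same 3 contrasts (by 1.27, 1.17 and 1.18) and was not called in the libraries labelled SE, replicates 4–6 (-0.18). Of 6 Stat6 coactivators, Il-4 called Ep300 lower in replicates 1–3 of SE (-0.76) and PE (-0.74) and none in replicates 4–6, and IFNγ called Parp14 higher in PE replicates 4–6 (0.61). Of 3 tested receptors and ligands that share Il2rg, Il15ra rose with IFNγ by 1.28 in SE replicates 1–3 and by 1.44 and 1.73 in PE, beside Il2rg itself. Of 9 other KLF genes, Il-4 called 1, Klf3, lower in SE replicates 1–3 (-0.66).

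The effector genes of the Il-4 response rose in the same libraries. Of 15 tested, 12 and 9 rose with SE and 10 and 10 with PE in replicates 1–3 and 4–6, and none fell, with medians of 2.73, 2.61, 2.16 and 2.22 that do not change when Slc7a2, at 0 counts in PBS, is set to its bound. Over all genes tested, 6.17% and 2.21% were called with SE and 3.48% and 3.58% with PE. The arginine transporter Slc7a2 stood at 5.03 CPM in SE and 5.54 in PE of replicates 1–3, and arginase Arg1 at 6.07 and 7.56 against 0.0124 CPM in PBS. The lectin Mgl2 stood at 54.6 and 67.9 against 0.285 CPM in PBS and the elastase Mmp12 at 43.1 and 38.8 against 0.693 CPM. Between SE and PE 0 of the 15 were called in either set. In the IFNγ series 8 of 13 tested effectors were higher and 1 lower in SE than in PE of replicates 1–3 (median 0.82), among them Itgax, Ccl22, Tgm2 and Mmp12. Of all genes tested, 5.33% were called there.

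Osteoclast markers, whose genes this line expresses at 44.6 to 336 CPM summed, also moved with the groups. Of 7 tested in the IFNγ series, SE replicates 1–3 and each set of PE called 5 lower and 1 higher, and the libraries labelled SE, replicates 4–6, called 5 lower and 0 higher. Ctsk, Acp5, Mmp9 and Oscar were among those lower in all 4. Over all genes tested, 21.2% were called in SE replicates 1–3, 18.5% and 11.2% in PE replicates 1–3 and 4–6, and 2.04% in the libraries labelled SE, replicates 4–6. In the Il-4 series the protease gene Mmp9 rose with SE in both sets (1.34, adjusted p = 0.0476, and 2.72, adjusted p = 0.0109), Ctsk rose with SE in replicates 1–3, and Nfatc1 fell in all 4 contrasts with PBS (-0.66 to -0.88). The IFNγ libraries labelled SE, replicates 4–6, therefore differed from PBS in more than Irf4. Of 10 proliferation genes, 3 were higher there, and 3 were higher and 1 lower in PE of the same set. The part of either list in the change of Irf4 was not tested.

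Across the 18 libraries of a series, after centring each label set on its mean, the genes whose log2 CPM followed a member most closely were found among 11543 (Il-4) or 13037 (IFNγ) genes with a mean of at least 1 CPM. With Il-4, Cish was most like Arg1 (Pearson r = 0.985) and the mannose receptor Mrc1 (0.983), Egr2 like Il20rb and Mmp12 (both 0.974), and Irf4 like Btbd3 (0.934) and Ctss (0.923). Cish and Egr2 correlated with each other at 0.97 and each with Irf4 at 0.78, and Cish with Il4ra at -0.73. With IFNγ, Il4ra was most like Trafd1 (0.993) and Gbp6 (0.984), and Il2rg like Gm15753 (0.990), while Myc was most like Zbtb17 (0.978) and Plk2 (0.974). Plk2 was also the gene most like Myc in the Il-4 series (0.939). These values describe libraries that share their groups and PBS controls, so they follow the group differences given above.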

How the data were processed

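Counts per gene were analysed from 2 tables, 1 per series, of 18 libraries each. The deposited values were raw counts: the authors made stranded mRNA libraries, read them from a single end, and counted uniquely aligned reads with featureCounts and GENCODE M12 on GRCm38.p5. The aligner and strand setting are not given in the sources used here, so reads of overlapping antisense genes cannot be told apart. The study ran DESeq2 1.16.1 in R 3.4.1. Coordinates and exon lengths are from GENCODE M21, a later release, by symbol.

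edgeR 4.0.16 under R 4.3.3 fitted a quasi-likelihood model (TMM, filterByExpr) to 6 cells of 3 libraries per series, leaving 12 residual degrees of freedom. CPM values are scaled by TMM, and likeness used a prior count of 2. Calls needed a Benjamini-Hochberg adjusted p under 0.05 and a fold over 1.5; differences of contrasts needed the p alone. No replicates were duplicates. The fits were tested on simulated data. The members, lists and tests were chosen with earlier results of these data known. All members were named; each list named up to 4 genes, those called in both sets first, by size, and the 2 genes most like a member. Other genes named, such as Pdcd1lg2 and Ccl22, were picked after their values were seen. DESeq2 1.42.0, RLE size factors, other filters, single label sets, a replicate block and leaving out replicates were tried. Some items that these rules would name are not reported here.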

Additional observations from a re-analysis of the deposited data

Results flagged for a closer look

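Of 60 groups of 6 libraries (10 genes in 6 groups), 3 held a library far from the others, where chance flags about 1 in 20 groups. This check pools both label sets, whose levels differ in make-up. Irf4 was 30.09 CPM in Il-4 SE replicate 1 against 17.43 in the next library, Pparg was 2.688 CPM in Il-4 SE replicate 4 against 4.077 in replicate 2 of the other set, and Myc was 7.221 CPM in Il-4 PBS replicate 1 against 2.491.

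Of 60 differences of a contrast between the label sets, 13 passed, all in the IFNγ series (replicates 4–6 minus 1–3, log2 scale, edgeR's test). Of all genes tested there, 35.7% passed for SE against PBS, 28.8% for SE against PE and 11.5% for PE against PBS. In the Il-4 series these shares were 4.39%, 0% and 0.00705%. For SE against PBS they were -1.32 for Il4ra (adjusted p = 7.02e-06), -0.83 for Il2rg, 0.35 for Stat6, -6.51 for Cish, -0.82 for Klf4 and -4.91 for Myc (9.09e-08). For SE against PE they were -1.65 for Il4ra (3.28e-07), -0.84 for Il2rg, -0.74 for Il13ra1, -5.06 for Cish and -2.83 for Myc. Both contrasts rest on the libraries labelled SE, replicates 4–6, which carry no IFNγ response. PE against PBS, which does not use them, differed by 0.43 for Il13ra1 (adjusted p = 0.0465) and -2.08 for Myc (0.00518), the former lost under 8 alternatives. Fitted values for Cish depend on the prior count because its counts reach 0. Its passage through the low count filter rests on SE replicates 1–3 alone.

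Of 40 differences between the series (Il-4 minus IFNγ, log2 scale), 20 passed. Of all genes tested, 26.5% and 6.26% passed for SE and 18.1% and 16% for PE, in replicates 1–3 and 4–6. For SE in replicates 1–3 they were -2.36 for Il4ra, -1.20 for Il13ra1, 6.00 for Cish, 2.48 for Egr2, -0.94 for Pparg and -2.84 for Myc. For SE in replicates 4–6 they were 11.12 for Cish, 1.67 for Egr2 and 2.96 for Myc, again with the libraries that lack the IFNγ response. For PE in replicates 1–3 they were -2.01 for Il4ra, -0.97 for Il13ra1, 7.91 for Cish, 3.64 for Egr2 and 2.01 for Irf4. For PE in replicates 4–6 they were -2.07 for Il4ra, -0.95 for Il2rg, -0.90 for Il13ra1, 7.94 for Cish, 2.67 for Egr2 and 2.29 for Irf4.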

How the results depend on the processing

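Under the alternatives tried, 220 results for the members were computed 2665 times. In 2530 the outcome was the same, either called in both fits or called in neither. A call was lost in 81 and gained in 54, and none changed sign where either fit made a call. Among those called in neither fit, 47 changed sign. Leaving out a replicate gave 66 of the losses. No scaling moved the median over all genes by more than 0.1 (log2). With 3 libraries on each side and a few counts of Cish in PBS and IFNγ libraries, its fold there is not resolved. In each comparison below, the cause of a change was not tested.

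Without the fold threshold the genes called in the IFNγ series, in replicates 1–3 and 4–6, were 7235 and 763 (SE against PBS), 6870 and 4338 (PE against PBS) and 3036 and 5378 (SE against PE). In the Il-4 series they were 1937 for SE and 943 for PE in replicates 1–3 and 792 for PE in replicates 4–6. With RLE size factors, no low count filter or protein-coding genes only, the PE label set difference with IFNγ held 1 member in place of 2. Protein-coding genes alone also left 0 genes in the PE label set difference with Il-4, and raised the share of higher calls in replicates 1–3 from 32% to 43.8% for SE and from 43.8% to 58.6% for PE. With each label set fitted alone, SE against PBS in replicates 4–6 with IFNγ called 0 members and 112 genes, and with Il-4 SE called 141 and PE 302 genes there.

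With no low count filter, SE against PBS in replicates 4–6 called 536 genes with IFNγ and 893 with Il-4. In the Il-4 series it further gave 1 member and 1358 genes for the SE label set difference, 5 members for PE in replicates 1–3, 805 genes for PE in replicates 4–6 and 118 for the PE label set difference. SE against PE then called 19 genes in replicates 1–3, 1 member and 301 genes in replicates 4–6, and 1 member and 77 genes for its label set difference. DESeq2 called, in the Il-4 series, 528 genes for SE in replicates 4–6, 1501 for the SE label set difference, 5 members for PE in replicates 1–3, 138 genes for the PE label set difference and 46 for SE against PE in replicates 4–6.

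Replicate numbers were not taken to pair the samples, since the labels tie them to no shared source and not every pair of same-numbered libraries deviated together, though more did so with Il-4: correlations of deviations between same-numbered libraries ran from -0.126 to 0.125 with IFNγ and from -0.11 to 0.395 with Il-4, with 2 and 12 of 18 above 0.1. With a replicate block the Il-4 series gave 743 genes for SE in replicates 4–6, 5 members and 763 genes for PE in replicates 1–3, 780 genes for PE in replicates 4–6 and 4 genes for SE against PE in replicates 4–6. Of the members, Il4ra in PE replicates 1–3 (adjusted p = 0.0181), Irf4 in SE and PE replicates 1–3 (0.0128 and 0.00568) and Myc in SE replicates 4–6 (0.00444) were then called with Il-4, and Cish in SE replicates 4–6 with IFNγ (0.0834) was not.

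Leaving out 1 replicate number at a time gave ranges, lowest to highest. With IFNγ, SE against PBS in replicates 4–6 called 0 to 2 members and 70 to 467 genes, PE in replicates 4–6 called 2 to 4 members, the PE label set difference held 1 to 2 members and 732 to 1848 genes, and SE against PE in replicates 1–3 called 2 to 4 members and 569 to 1056 genes. With Il-4, SE called 2 to 5 members and 105 to 1646 genes in replicates 1–3 and 1 to 4 members and 60 to 490 genes in replicates 4–6, and its label set difference held 0 to 1722 genes. PE called 92 to 585 genes in replicates 1–3, 1 to 3 members and 113 to 532 genes in replicates 4–6, and 0 to 18 genes for its label set difference. The difference between the series ranged from 2339 to 5077 genes (SE, replicates 1–3), 1 to 3 members and 311 to 1265 genes (SE, replicates 4–6), 1692 to 3665 genes (PE, replicates 1–3) and 1297 to 2914 genes (PE, replicates 4–6).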
